A study of Mus musculus with 18 samples.

Results

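The genes described here encode the voltage-gated sodium and calcium channels of mouse brain. Members were taken as every probe set of the array annotated to a single gene symbol that begins with Scn and a digit, or with Cacna, Cacnb or Cacng. The rule gave 85 probe sets of the 45037 tested, and they covered 35 genes. Pore-forming subunits had 43 of them (17 genes) and auxiliary subunits 42 (18 genes). The rule uses gene symbols and no measured value.

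Both channel families are built around a large pore. A sodium channel consists of a pore-forming alpha subunit, which carries the upstroke of the action potential, and small beta subunits that tune its gating and anchor it in the membrane. A calcium channel has a pore-forming alpha1 subunit, which lets in the calcium that triggers transmitter release and gene expression, together with alpha2delta and beta subunits that bring it to the surface. The gamma family is named after a subunit of the muscle calcium channel, but most of its brain members are better known as partners of AMPA-type glutamate receptors.

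All mice carried a transgene in which a flag-tagged rat poly(A)-binding protein, followed by an internal ribosome entry site and eGFP, replaced the orexin coding sequence in a bacterial artificial chromosome. They were of C57BL/6J X DBA/2J background and 11 or 14 weeks old, with ages not assigned to samples. In the IP group (9 arrays), brains of mice perfused with 1% formaldehyde were lysed and RNA was pulled down through the flag tag, and the labels call it polyA RNA from orexin cells. In the WB group (9 arrays), RNA came from whole brain and is called total RNA. Each was amplified from 5 ng, and the question was which transcripts differed in abundance between pulled-down and whole brain RNA. How many transgenic lines were used, and whether each array stood for its own animal, are not given in the sources used here, so the p-values cover variation among these arrays, which may be technical.

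Values are intensities on a linear scale, as deposited. Differences are IP minus WB on a scale of log2(intensity + 16), which understates changes of dim probe sets, and were tested with limma across all 45037 probe sets at an adjusted p of 0.05. Over all of them the median difference was -0.23. The labels give both groups the same extraction text and none of its own for WB. Pull-down and the kind of RNA differed together between the groups and cannot be told apart, nor can fewer cells of a type and less RNA per cell. The deposited scaling sets the trimmed mean of every array to 500, while the hybridization controls averaged 13.69 to 15.31 (log2) on IP arrays and 13.05 to 13.54 on WB arrays. IP replicates 2, 5, 6 and 8 had the highest control values, from 14.51 upwards. Hcrt, the orexin gene itself, did not pass the test, with 8.23 ± 0.74 in IP and 8.02 ± 0.42 in WB (log2, mean ± SD, n = 9 each) and a difference of 0.21 (adjusted p = 0.568). Pdyn, the dynorphin precursor that orexin neurons also make, was lower by 2.46-fold (adjusted p = 0.00492), while Nptx2, a pentraxin that they also express, was higher on 1 of 2 probe sets (1.26, adjusted p = 5.37e-05). A gain in the defining marker of the labelled cells was thus not measured. Of 12 probe sets for 5 general neuron markers, 5 were higher and 6 lower, of 8 for 3 astrocyte markers 3 were higher and 4 lower, and of 9 for 2 oligodendrocyte markers 4 were higher and 4 lower. Of 4 probe sets for 3 microglial markers, 0 were higher, also at an unadjusted p of 0.05, and 3 lower, and their summed intensity was 241 to 929 in IP, against 988 to 1390.3 in WB. Astrocyte marker sums were 11551 to 19315 in IP, against 6314 to 9678 in WB. Neuron marker sums were 118930 to 243655 in IP and 89935 to 126002 in WB, with overlap. Oligodendrocyte marker sums were 88233 to 212186 and 66510 to 97563, also with overlap. Among all probe sets 14.2% were higher and 30.8% lower. The part of such cells in the results was not tested.

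Channel transcripts were more often lower than higher in IP. Of the 85 probe sets, 11 were higher (12.9%) and 39 were lower (45.9%), while 35 did not pass. Across the whole array 14.2% of probe sets were higher and 30.8% lower, 45% in all. The members' median difference was -0.49. The pore-forming probe sets gave 8 higher and 17 lower of 43 (median -0.40), and the auxiliary ones gave 3 higher and 22 lower of 42 (median -0.70). Changes of at least 2-fold were counted in 7 members upward (8.24%) and 24 downward (28.2%), against 7.72% and 21.9% of all probe sets. Whether pore-forming and auxiliary subunits differ was not tested. For comparison, 22 of 167 potassium channel probe sets were higher and 59 lower (median -0.32), and 20 of 107 for ligand-gated channels were higher and 38 lower (median -0.18).

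These counts moved with the scaling between arrays, and so did those over the whole array. Quantile normalization gave 15 higher and 29 lower members, when the members' median was -0.19 and that of all probe sets was 0.11. With it 24.1% of all probe sets were higher and 22% lower. Centring each array on its median gave 16 higher and 23 lower members, beside 28.4% and 18.5% of all probe sets (medians -0.065 and 0.20). Scaling arrays on the hybridization controls gave 2 higher and 67 lower members, beside 2.88% and 68.4% of all (medians -1.43 and -1.17). Median centring and scaling on the controls shift all differences by the same amount, so they leave the gap between these medians unchanged. Only quantile normalization could change it, and there the members' median was again the lower. Of the 39 lower calls, 23 kept their direction and threshold under all 3 other scalings, and of the 11 higher calls 2 did, both of Cacna1b. With scaling on the controls, 4 of the 11 lay below 0, namely those of Scn2a, Scn8a, Cacna2d2 and Cacnb4. The rises of Scn1a, Scn3a, Scn7a, Cacna1a and Scn3b did not pass with that scaling, at 0.37, 0.37, 0.095, 0.17 and 0.26.

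**Figure D1:**
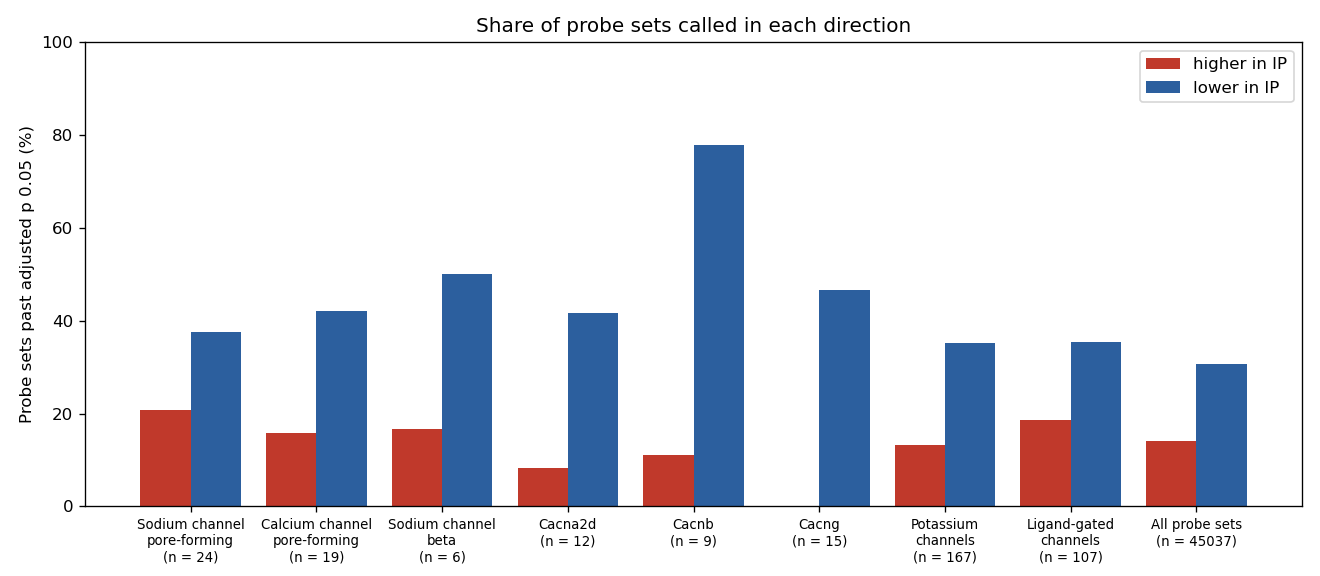
Percent of probe sets past adjusted p 0.05, higher or lower in IP than in WB, for each subunit family, for potassium and ligand-gated channels, and for all probe sets; n is the number of probe sets. The Cacnb family has the tallest bar for lower probe sets (77.8%, against 30.8% of all), and no Cacng probe set was higher (0 of 15, against 14.2% of all).

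Several sodium channel alpha genes had probe sets called in opposite directions, as did 22% of all genes with several probe sets. Of 24 probe sets, 5 were higher (20.8%, against 14.2% of all), 9 lower (37.5%, against 30.8%) and 10 did not pass. Scn1a, Scn2a, Scn3a and Scn8a, the main alpha subunits of central neurons, each had probe sets past the threshold in both directions. With quantile normalization or median centring Scn3a no longer did, and with control scaling none of them did. Scn1a encodes Nav1.1, which is prominent in inhibitory interneurons. Its probe set 1450121_at had intensities of 3625 to 7160.5 in IP (median 6584), against 1824 to 2954 in WB (median 2369.6), so that all 9 IP arrays lay above all 9 WB arrays. The difference was 1.31 (SE 0.14, adjusted p = 4.33e-08), which is 2.49-fold. A second probe set, 1450120_at, gave 564 to 1157 in IP (median 997), against 1325 to 1956 in WB (median 1668), with every IP array below every WB array and a difference of -0.86 (SE 0.14, adjusted p = 2.07e-05). The third, 1441728_at, showed 111 to 474 in IP (median 283), against 677 to 1024 in WB (median 806), again without overlap and lower by 2.93-fold (-1.55, SE 0.21, adjusted p = 1.19e-06).

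The annotation gives 1450121_at and 1450120_at of Scn1a the same sequence record, so the opposite calls came from probe sets listed under a single record. Among members, 7 pairs of probe sets shared a record, and the pair of Scn1a was the only 1 of them called in opposite directions. Among other genes 322 of 3247 such pairs (9.92%) were opposite. The median gap between the differences of a pair was 1.47 for the 7 members' pairs and 0.78 for the others.

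Scn2a encodes Nav1.2, an alpha subunit of excitatory neurons and their axons. One of its 4 probe sets was higher: 1435933_at had 2634 to 8787 in IP (median 5202), against 2294 to 3508 in WB (median 2597), with groups that overlapped and a difference of 0.86 (SE 0.18, adjusted p = 0.000403). Without IP replicates 2, 5, 6 and 8 together it was 0.49 (adjusted p = 0.0146). In contrast, 1427281_at had 70.5 to 515 in IP (median 238), against 809 to 1343 in WB (median 1109.6). All its IP arrays lay below all WB arrays, and it fell 4.83-fold (-2.27, SE 0.26, adjusted p = 1.16e-07), the largest fall among sodium channel probe sets. Its partner on the same record, 1427280_at, had the highest mean of the sodium channel alpha probe sets, at 2132 to 7713 in IP (median 5099.6), against 5378 to 8672 in WB (median 6203). There the difference was -0.44 (adjusted p = 0.0414), and the last probe set, 1445259_at, gave -0.67 (adjusted p = 0.0416). Both of these small falls lost their calls in several fits that left out 1 array, in 9 of 18 for 1427280_at and 11 of 18 for 1445259_at.

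Scn3a encodes Nav1.3, best known from the developing brain. Its probe set 1439204_at had 1095 to 3108 in IP (median 1487), against 493 to 958 in WB (median 673), without overlap, and was higher by 2.49-fold (1.32, SE 0.19, adjusted p = 2.58e-06). The other, 1421705_at, was dim and gave -0.69 (adjusted p = 0.0365), a call that was lost in 9 of 18 fits without 1 array. Scn8a encodes Nav1.6, the channel of axon initial segments and nodes. Of its 5 probe sets 1439889_at was higher, at 1295 to 5759 in IP (median 1879), against 1332 to 1640.4 in WB (median 1364), with a difference of 0.56 (SE 0.21, adjusted p = 0.0274). The IP values spread widely there, and without IP replicate 2 the difference of 0.49 did not pass (adjusted p = 0.0554), nor did 0.25 without the 4 IP arrays together (adjusted p = 0.129). By comparison, 1423515_at and 1451894_a_at of Scn8a were below WB on all 9 IP arrays. The first, for which no sequence record is listed, had 569.6 to 1657 in IP (median 1111), against 1834 to 2339 in WB (median 1976) and a difference of -0.89 (SE 0.17, adjusted p = 0.000139). The second had 200.4 to 1169.5 in IP (median 840.1), against 1564 to 2326 in WB (median 1905) and fell by 2.85-fold (-1.51, SE 0.25, adjusted p = 2.48e-05). Probe sets 1457412_at and 1442208_at did not pass, with differences of -0.17 (adjusted p = 0.608) and -0.84 (adjusted p = 0.0579).

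**Figure D2:**
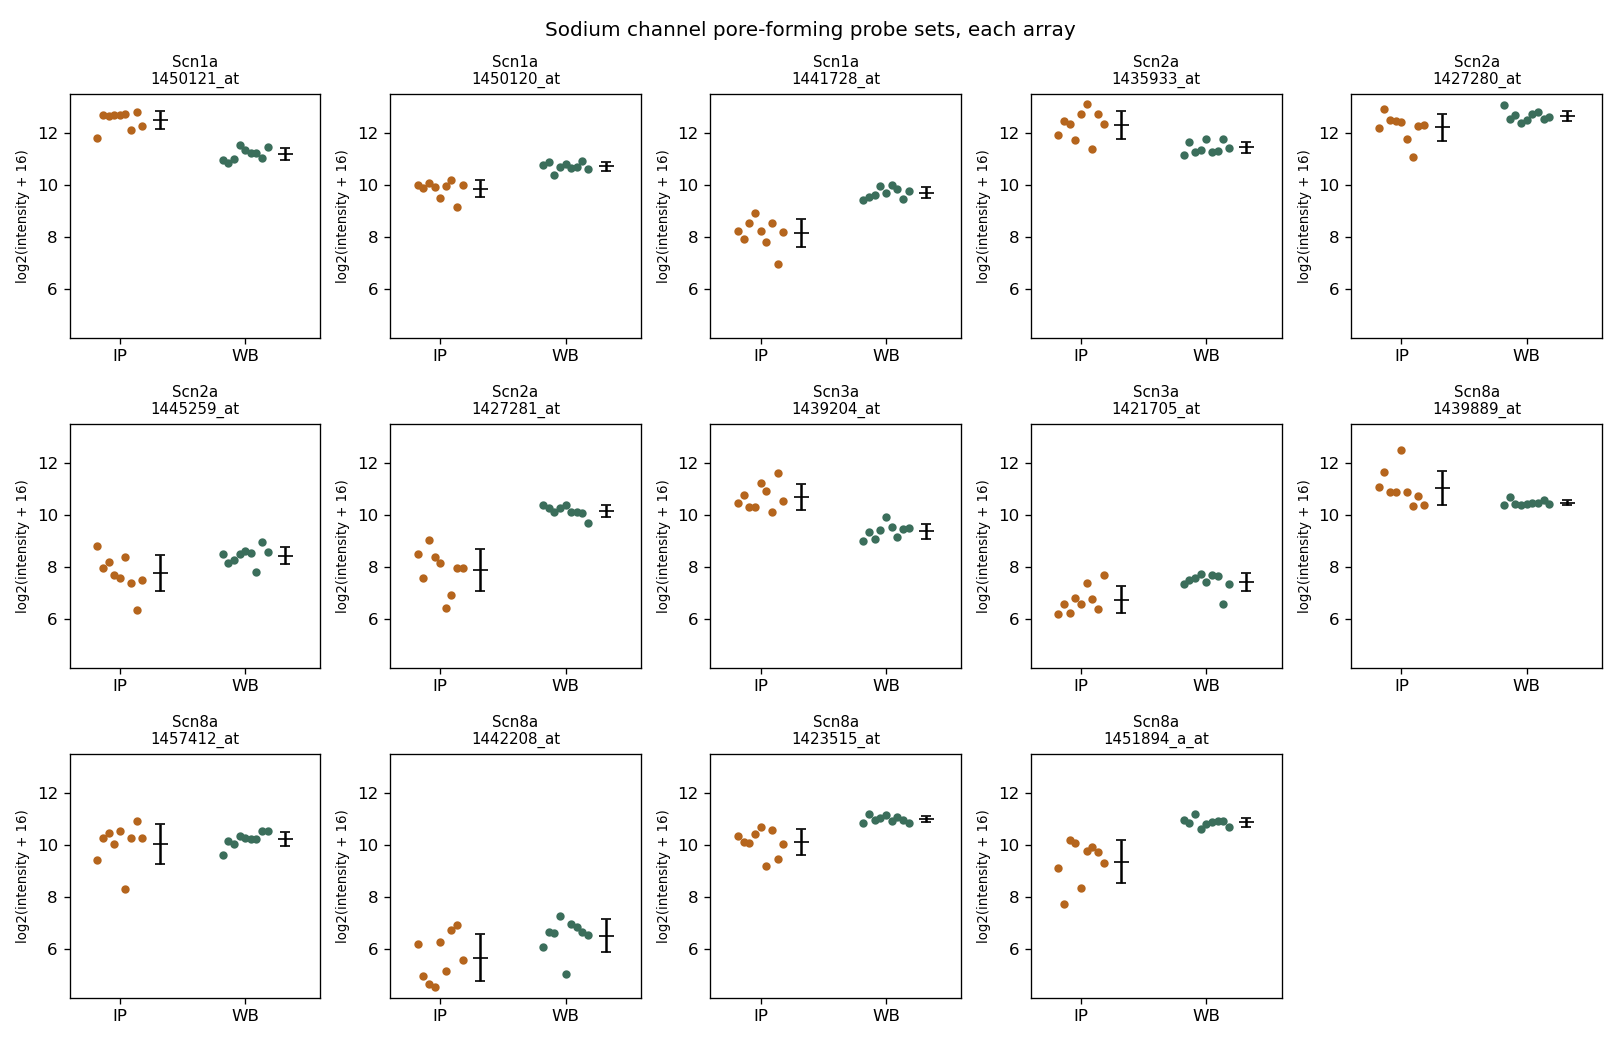
Each point is the log2(intensity + 16) of 1 array, for all 14 probe sets of Scn1a, Scn2a, Scn3a and Scn8a, with IP left of WB and bars for mean ± SD (n = 9 each). Probe sets of the same gene lie on opposite sides, as for Scn1a, where IP is above WB in the first panel and below it in the next pair.

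Scn7a encodes Nax, a channel that senses sodium concentration rather than voltage. Its probe set 1436044_at had 212 to 1053 in IP (median 580.4), against 170.1 to 375 in WB (median 219.6) and was higher by 2.05-fold (1.04, SE 0.28, adjusted p = 0.00420), with groups that overlapped. The other probe sets of Scn7a gave -0.49 (adjusted p = 0.299) and 0.15 (adjusted p = 0.727). Of 5 probe sets for Scn9a, the Nav1.7 of sensory and some hypothalamic neurons, 1 was lower, at -0.84 (adjusted p = 0.0236), a call lost with quantile normalization and median centring, and the other 4 had differences between -0.73 and 0.45. Scn10a and Scn11a, alpha subunits of peripheral pain-sensing neurons, had 1 probe set each and did not pass, with differences of -0.38 (adjusted p = 0.421) and 0.04 (adjusted p = 0.943). Their 95% confidence intervals ran from -1.12 to 0.37 and from -0.73 to 0.81. Of the markers of peripheral sensory neurons, 2 of 5 genes had probe sets, and 0 of these 5 probe sets passed with limma (0 higher and 2 lower at an unadjusted p of 0.05). Their summed intensity was 133 to 762 in IP, against 175 to 556 in WB. The part of such cells in the result was not tested.

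Calcium channel alpha1 subunits were counted by subfamily, and whether the subfamilies differ was not tested. Over all probe sets the shares were 14.2% higher and 30.8% lower. The Cav2 genes, whose channels trigger transmitter release at nerve endings, had 10 probe sets, with 3 higher and 5 lower. The L-type genes had 0 higher and 2 lower of 6, and the T-type genes 0 higher and 1 lower of 3, the same counts as at an unadjusted p of 0.05 with limma. Cacna1b, which encodes the N-type channel Cav2.2, held the largest rises of all members. Its probe set 1436602_x_at had 13872 to 37668 in IP (median 24901), against 3201 to 6638 in WB (median 4913), and its lowest IP array was 2.09 times the highest WB array. The difference was 2.37 (SE 0.18, adjusted p = 7.71e-11), or 5.18-fold. The probe set 1460608_at was higher as well, at 13819 to 40221 in IP (median 25498), against 4855 to 7154 in WB (median 6219), with a difference of 2.13 (SE 0.17, adjusted p = 2.93e-10). Over the 18 arrays their mean signals ranked above 99.3% and 99.5% of all probe sets, and for neither is a sequence record listed. Whether this pair measures Cacna1b could therefore not be checked here. A record is also missing for both probe sets of Cacnb2, 1452089_at of Cacnb4, 1423515_at of Scn8a and 1457819_at of Scn9a, which were all called lower. The suffix _x_at marks a probe set that can match several genes. Of 2441 probe sets with that suffix on the array, 1001 were higher and 368 lower. The higher call of the gene mean of Cacna1b includes this pair.

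Neither of the other probe sets of Cacna1b was higher. With 222 to 364 in IP (median 276), against 162 to 314 in WB (median 229), 1425812_a_at did not pass (0.24, SE 0.19, adjusted p = 0.322, 95% confidence interval -0.15 to 0.63). The fourth, 1439612_at, had 21.3 to 379 in IP (median 141), against 233 to 522 in WB (median 365) and was lower by 2.88-fold (-1.53, SE 0.37, adjusted p = 0.00161). In the first pair the rise was 2.02 and 1.74 without the 4 IP arrays with high control signal, and 1.43 and 1.19 after control scaling. Each of these passed the threshold.

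Cacna1a encodes Cav2.1, the P/Q-type channel of most central synapses. It was higher on 1459996_at, with 1619 to 5092 in IP (median 2366), against 681 to 1788 in WB (median 1249) and a difference of 1.11 (SE 0.20, adjusted p = 7.41e-05). Lower values came from 1444455_at, at 74.4 to 263 in IP (median 176), against 381 to 541 in WB (median 468), without overlap (-1.45, SE 0.23, adjusted p = 1.61e-05), and from 1430408_at, at 20.4 to 439 in IP (median 203), against 439 to 836 in WB (median 729), with a difference of -1.93 (SE 0.39, adjusted p = 0.000242). The fourth, 1450510_a_at, gave 0.22 (adjusted p = 0.574). Cacna1e encodes the R-type channel Cav2.3, and both of its probe sets were lower. On 1436260_at the intensities were 525 to 1564 in IP (median 889), against 3542 to 5251 in WB (median 3926), with all IP arrays below all WB arrays. That is a fall of 4.37-fold (-2.13, SE 0.18, adjusted p = 8.54e-10). On 1421692_at the difference was -0.95 (adjusted p = 0.000797).

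Among the L-type genes, Cacna1c, encoding Cav1.2, was lower on both probe sets, by 1.86-fold and 1.91-fold (adjusted p = 0.00595 and 0.00238). These calls were lost with median centring, and the first also with quantile normalization and without the 4 IP arrays. Cacna1d, encoding Cav1.3, a channel that opens at low voltage and serves pacemaking, did not pass on either probe set. The differences were 0.21 (SE 0.17, adjusted p = 0.353) and -0.16 (SE 0.30, adjusted p = 0.704), with intervals of -0.15 to 0.57 and -0.77 to 0.46. Cacna1h, a T-type channel of burst firing, had differences of -1.05 (adjusted p = 0.0362) and -0.84 (adjusted p = 0.114), and the first lost its call in 9 of 18 fits without 1 array. Cacna1g, another T-type channel, gave -0.40 (adjusted p = 0.406) on a probe set with medians of 22.2 in IP and 60.2 in WB.

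Cacna1s and Cacna1f, whose channels are known from skeletal muscle and retina, did not pass, at 0.04 (adjusted p = 0.942) and -0.27 (adjusted p = 0.647). Of the 7 probe sets for 5 skeletal muscle markers, 0 were higher and 1 was lower (0 and 3 at an unadjusted p of 0.05 with limma). Their summed intensity was 267 to 560 in IP, against 333 to 714 in WB. Of 3 probe sets for 2 retinal markers, 1 was higher, with sums of 152 to 450.3 in IP and 211 to 409 in WB. Their part in the result was not tested.

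**Figure D3:**
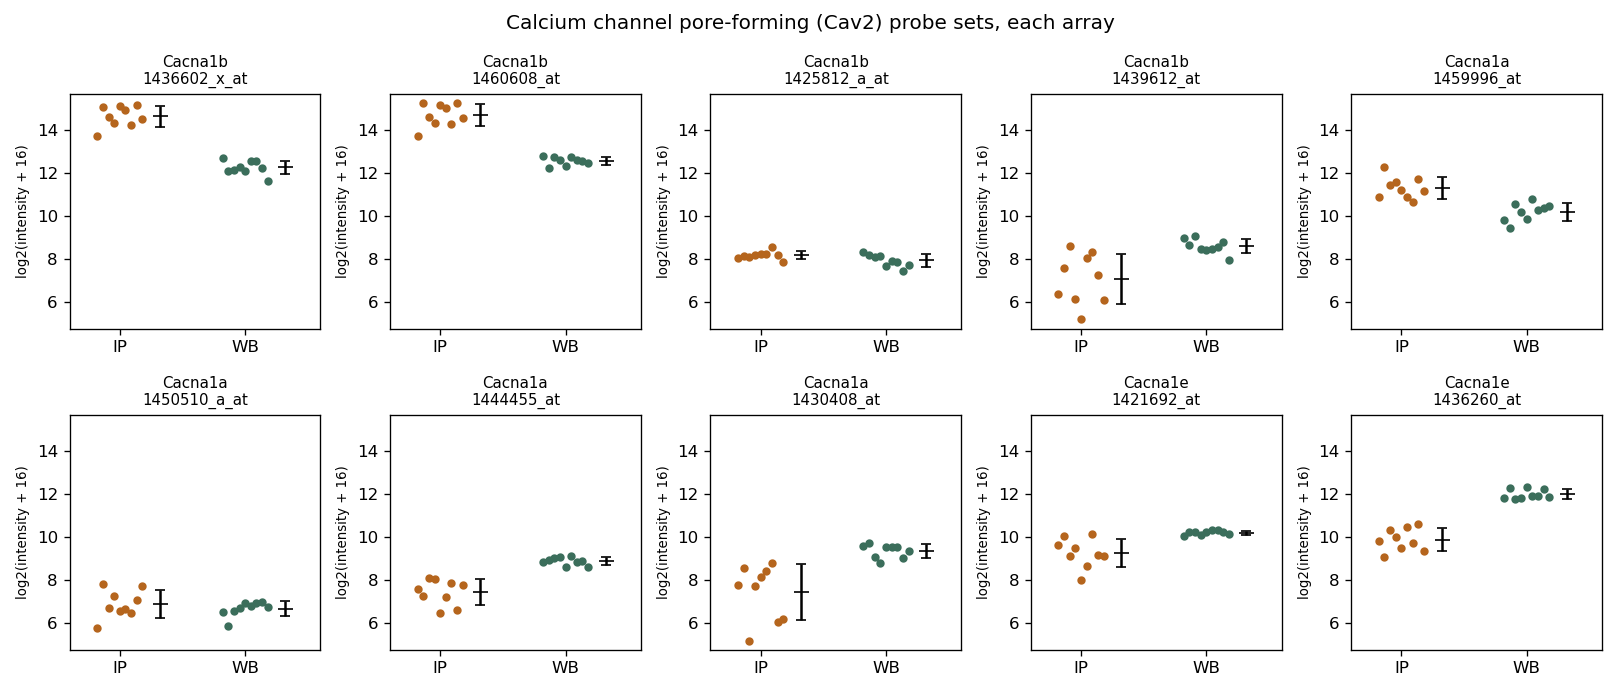
Each point is the log2(intensity + 16) of 1 array, for all 10 probe sets of the Cav2 genes Cacna1b, Cacna1a and Cacna1e, with IP left of WB and bars for mean ± SD (n = 9 each). The first pair of Cacna1b panels has IP near 14.7 and WB near 12.3 and 12.6, while its rightmost panel, the last pair of Cacna1a and both of Cacna1e have IP below WB.

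Auxiliary subunits showed few rises. For the sodium channel beta subunits, 1 of 6 probe sets was higher and 3 were lower (16.7% and 50%, against 14.2% and 30.8% of all). Scn3b was higher on 1435767_at, at 549.5 to 2954 in IP (median 1766), against 462 to 847 in WB (median 718), with overlapping groups and a difference of 1.20 (SE 0.25, adjusted p = 0.000365), or 2.30-fold. On 1426328_a_at it was -0.05 (adjusted p = 0.917). Scn4b, the subunit linked to resurgent sodium current in fast-firing neurons, had 1 probe set, with the highest mean of the beta subunits. Its intensities were 1019.7 to 1696 in IP (median 1244), against 2424 to 3798 in WB (median 3137), with no overlap, a narrow spread in both groups and a fall of 2.39-fold (-1.26, SE 0.13, adjusted p = 1.53e-08). Scn2b, which is covalently bound to alpha subunits, was lower on 2 of 3 probe sets. The larger fall was on 1430648_at, at 114 to 1194 in IP (median 910.2), against 1375 to 3229.9 in WB (median 1595), without overlap (-1.78, SE 0.35, adjusted p = 0.000197). On 1457144_at the difference was -0.83 (adjusted p = 0.000313), which did not pass with median centring, and on 1436134_at it was -0.06 (adjusted p = 0.763) with an interval of -0.37 to 0.25.

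Alpha2delta subunits, of which Cacna2d1 and Cacna2d2 bind gabapentin, gave 1 higher and 5 lower of 12 probe sets. These shares were 8.33% and 41.7%, against 14.2% and 30.8% of all probe sets. Cacna2d1 held the largest fall of all members. Its probe set 1425861_x_at had 7.94 to 374 in IP (median 72.5), against 987 to 1283 in WB (median 1115), without overlap, a difference of -3.54 (SE 0.44, adjusted p = 3.78e-07) and a fold of 11.6. The suffix _x_at marks possible matches to several genes here too. The IP arrays were widely spread on this probe set, with an SD of 1.52 against 0.12 in WB. Its probe set 1449999_a_at was lower by 3.81-fold without overlap, 1441608_at by 1.91-fold (a call lost with quantile normalization, median centring and without the 4 IP arrays), and the other 2 probe sets did not pass (-0.03 and -0.18). Cacna2d2, the form of cerebellar Purkinje cells, was higher on 1450754_at, which had the highest mean of the calcium channel auxiliary probe sets. It had 4054 to 7651 in IP (median 6134), against 3352 to 6219 in WB (median 4197), overlapping, and a difference of 0.40 (SE 0.14, adjusted p = 0.0254). This call was lost with quantile normalization, where the difference was -0.20, and in 4 of 18 fits without 1 array. With scaling on the hybridization controls it turned to -0.55. Cacna2d3 fell by 1.67-fold (adjusted p = 0.00365), a call lost with median centring, and Cacna2d4 was lower on 1 of 3 probe sets, 1442863_at, with 5.41 to 165 in IP (median 11.7), against 56.2 to 130.3 in WB (median 98.5) and a fall of 3.21-fold (adjusted p = 0.000149).

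The cytoplasmic beta subunits, which carry alpha1 subunits to the membrane, were the family with the highest share of lower probe sets. There 7 of 9 were lower (77.8%, against 30.8% of all) and 1 was higher (11.1%, against 14.2%). All 7 fell at least 2-fold, and the family's median difference was -1.78. Cacnb2 was lower on both probe sets, and for neither is a sequence record listed. Its 1452476_at had 28.4 to 301 in IP (median 119.8), against 310.3 to 660.4 in WB (median 529), without overlap (-2.11, SE 0.34, adjusted p = 1.90e-05), and its 1456401_at gave -1.78 (adjusted p = 0.000331). Cacnb1 was lower on 3 of 4, most on 1426108_s_at at 18.3 to 351 in IP (median 179), against 455 to 898 in WB (median 654), without overlap (-2.22, SE 0.41, adjusted p = 8.88e-05). On 1425777_at and 1440940_at it fell by 3.87-fold and 2.28-fold, and 1451834_at did not pass (-0.48, adjusted p = 0.129). The 7 calls of lower probe sets held under every scaling, every fit without 1 array, and without the 4 IP arrays.

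Cacnb4, the beta subunit whose loss causes ataxia in the lethargic mouse, split. The probe set 1428928_at had 2101 to 5129 in IP (median 3972), against 1682 to 3358 in WB (median 2660.3) and was higher by 1.45-fold (0.53, SE 0.16, adjusted p = 0.00708), with overlap. This rise was lost with quantile normalization and without the 4 IP arrays. The probe set 1452089_at, for which no sequence record is listed, had 64.2 to 832 in IP (median 308), against 1426 to 2103 in WB (median 1626), without overlap, and fell 4.68-fold (-2.23, SE 0.34, adjusted p = 7.58e-06). The third, 1436912_at, gave 239 to 1249 in IP (median 469), against 1061 to 1394 in WB (median 1287) and a difference of -1.16 (SE 0.23, adjusted p = 0.000151).

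**Figure D4:**
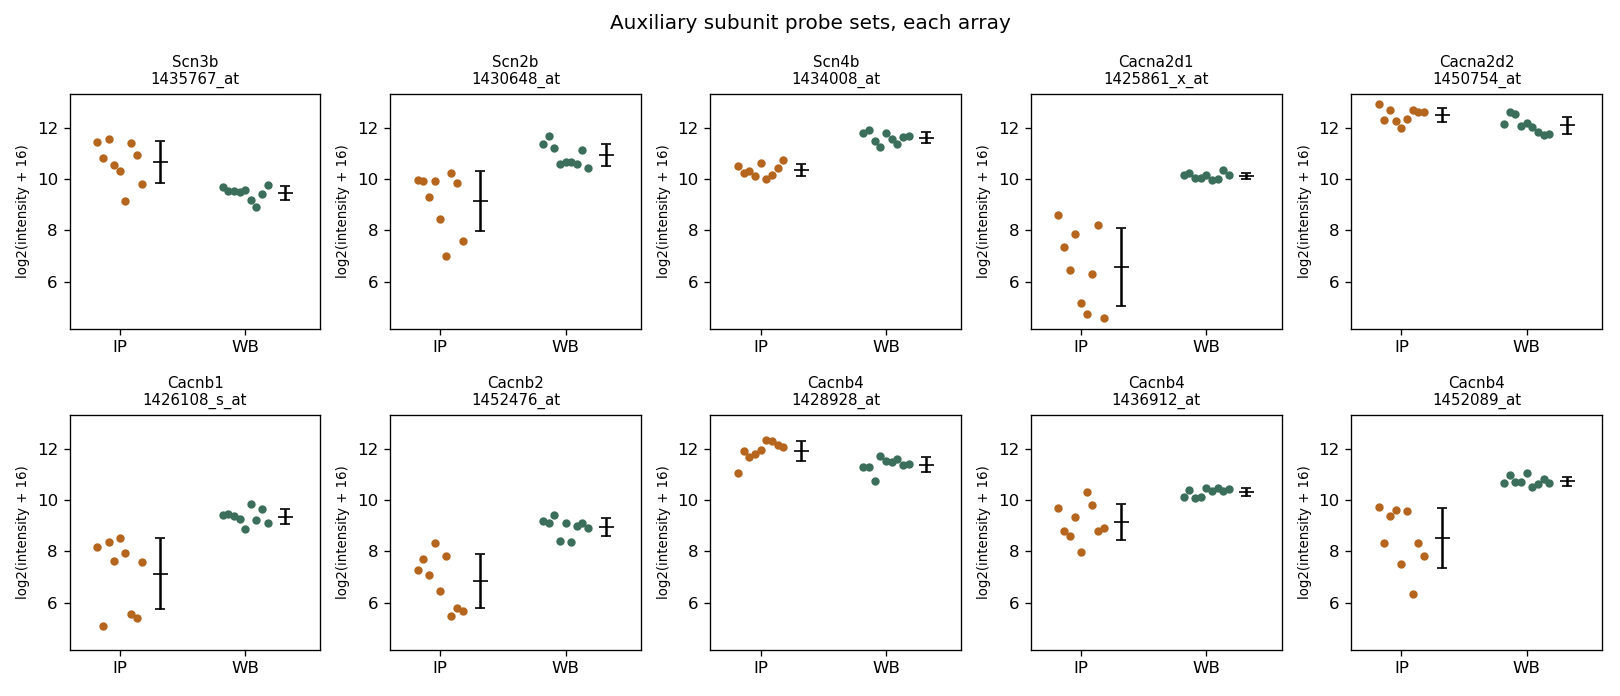
Each point is the log2(intensity + 16) of 1 array, for 10 auxiliary subunit probe sets (all 3 of Cacnb4, and for the other genes the called probe set that differed most), with IP left of WB and bars for mean ± SD (n = 9 each). All IP arrays lie below all WB arrays for Scn2b, Scn4b, Cacna2d1, Cacnb1, Cacnb2 and 1452089_at of Cacnb4, and the IP values of most panels are the more widely spread.

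In the gamma family 0 of 15 probe sets were higher and 7 were lower (0 and 8 at an unadjusted p of 0.05 with limma). These are 0% and 46.7%, against 14.2% and 30.8% of all probe sets. The family's median difference was -0.63. Cacng2, or stargazin, which brings AMPA receptors to synapses, was lower on all 3 of its probe sets, by 1.55-fold, 2.37-fold and 2.41-fold. On 1453363_at the intensities were 63.3 to 273 in IP (median 101), against 195 to 471 in WB (median 266), and this fall kept its call under every scaling, unlike the other 2, which lost it with median centring. The related AMPA receptor partners Cacng3, Cacng4, Cacng5 and Cacng7 were each lower on 1 probe set, by 1.90-fold, 1.77-fold, 2.54-fold and 2.53-fold. The adjusted p-values were 0.00164, 0.00194, 0.00580 and 0.0113, and all 4 calls were lost with median centring. Cacng8, the form enriched in hippocampus, had differences of -0.18 (adjusted p = 0.795) and -0.25 (adjusted p = 0.671), with IP values spread from 14.3 to 957 on the first. Cacng1, which encodes the muscle subunit, and its relative Cacng6 did not pass on any of their 3 probe sets, with differences from -0.38 to 0.19.

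**Figure D5:**
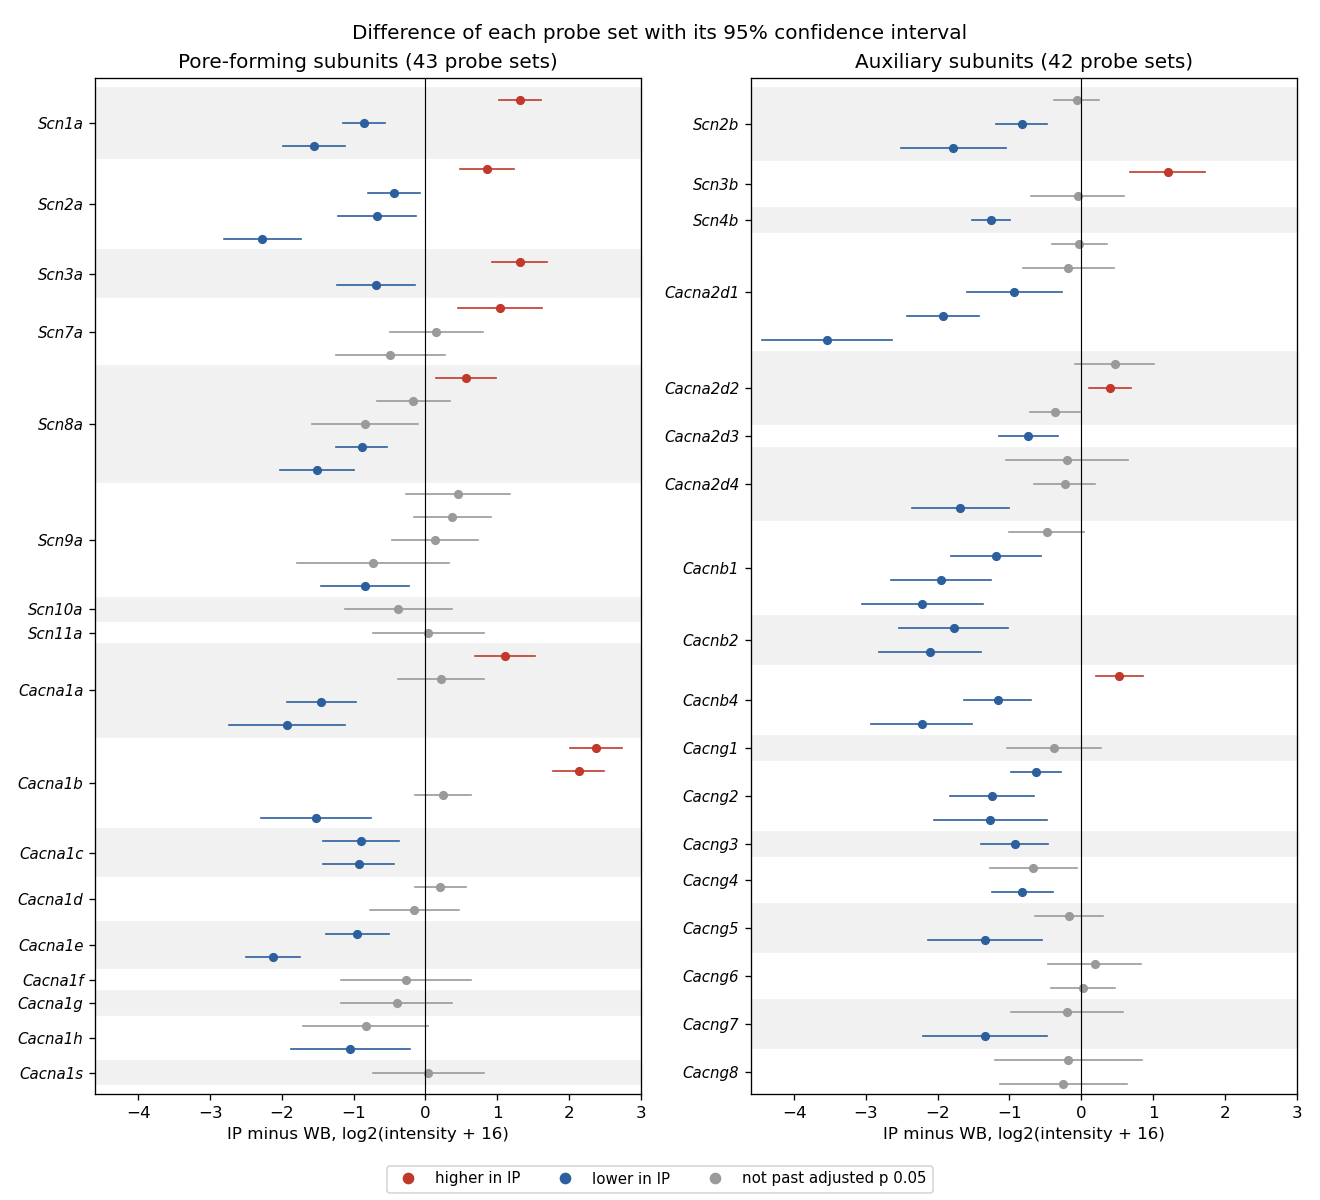
Difference of IP minus WB in log2(intensity + 16), with 95% confidence intervals, for all 85 probe sets grouped by gene, pore-forming subunits on the left and auxiliary ones on the right; colours mark higher, lower and not past adjusted p 0.05. In 7 genes red and blue points stand side by side. Points right of 0 number 6 of 42 for auxiliary subunits and 17 of 43 for pore-forming ones, against 17752 of 45037 over all probe sets. The difference between the classes was not tested.

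Counted by gene, 3 genes had higher probe sets and none lower, 16 had lower and none higher, 7 had both and 9 had neither. Over all genes, the shares with rises alone, falls alone or neither were not counted. Of all probe sets, 14.2% were higher and 30.8% lower. The 3 with rises alone were Scn3b, Scn7a and Cacna2d2. Of the 26 genes with more than 1 probe set, 7 had calls in both directions (26.9%), against 1985 of 9010 such genes on the array (22%). The 7 were Scn1a, Scn2a, Scn3a, Scn8a, Cacna1a, Cacna1b and Cacnb4. With quantile normalization 5 of the 26 had both (20.3% of such genes on the array), with median centring 6 (22.2%), and with control scaling 1, Cacna1b (9.25%). In 5 of them the probe set with the strongest WB signal was a higher one, as in 1248 of 1978 other genes with calls both ways (63.1%). Signal also depends on the probes, so a stronger one is no measure of more RNA.

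When the log2 values of each gene's probe sets were averaged and tested across 18193 genes, 2 channel genes were higher (5.71%) and 20 were lower (57.1%) of 35. The same fit called 12.5% of all genes higher and 29% lower. The higher genes were Cacna1b (0.81, SE 0.15, adjusted p = 0.000156) and Scn3b (0.58, SE 0.19, adjusted p = 0.0158). Among the lower were Cacnb2 (-1.94, SE 0.28, adjusted p = 5.98e-06), Cacna1e (-1.54, SE 0.13, adjusted p = 6.69e-09), Cacnb1 (-1.46) and Cacna2d1 (-1.32). The mean of Cacna2d1 includes 1425861_x_at, whose suffix marks possible matches to several genes. By this measure Scn1a (-0.37), Scn2a (-0.63) and Scn8a (-0.57) were lower too, with adjusted p-values of 0.008, 0.000635 and 0.00108, and Scn3a did not pass (0.31, adjusted p = 0.0974). The median over the 35 genes was -0.57, and over all genes it was -0.16.

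All 9 IP arrays lay above all 9 WB arrays for 4 pore-forming probe sets (2 of Cacna1b, and 1 each of Scn1a and Scn3a) and for 0 auxiliary ones, where 5.22% of all probe sets did. They lay below for 7 pore-forming and 7 auxiliary probe sets (10.3% of all). The IP arrays varied more: the SD was larger in IP than in WB for 80 of 85 probe sets (94.1%, against 87.7% of all), with a median of 0.71 in IP and 0.32 in WB. No IP array was the lowest of its group in more than 16 of the 85 (replicate 5), or the highest in more than 12 (replicates 2 and 6). A mean log2 value under 7 over the 18 arrays was found for 16 members (18.8%, against 34% of all probe sets). Of these 0 were higher and 3 lower (0 and 5 at an unadjusted p of 0.05 with limma). The shares were 0% and 18.8%, against 7.32% and 20.2% of all probe sets with such a mean.

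The list of channel partners joins genes for proteins that bind, anchor or regulate these channels with related cation channels outside the rule. Their probe sets also moved in both directions. Of 38 such genes, 33 had a probe set, and of their 79 probe sets 18 were higher (22.8%) and 31 lower (39.2%), against 14.2% and 30.8% of all probe sets, with a median difference of -0.40. Several of these genes had calls in both directions. The largest rises of single probe sets were in Stx1a, a syntaxin that binds Cav2 channels (2.53, SE 0.16, adjusted p = 4.97e-12), Rims2, an active zone scaffold (2.06, SE 0.21, adjusted p = 1.51e-08), and Nedd4l, a ubiquitin ligase that removes sodium channels from the membrane (1.44, SE 0.22, adjusted p = 5.98e-06). The Stx1a rise was on 1437390_x_at, whose suffix marks possible matches to several genes and for which no sequence record is listed. Whether it measures Stx1a could not be checked here. Stx1a was also lower on 1448366_at (-2.32, SE 0.43, adjusted p = 8.36e-05), with all IP arrays below all WB arrays. The largest falls were in Ank2, an ankyrin (-3.39, SE 0.30, adjusted p = 1.34e-09), Unc79, a subunit of the sodium leak channel (-2.82, SE 0.45, adjusted p = 1.43e-05), and Nedd4l again, on 1423269_a_at (-2.73, SE 0.39, adjusted p = 3.23e-06). Ank2 was also higher on 1434265_s_at (0.72, SE 0.12, adjusted p = 3.04e-05), with all IP arrays above all WB arrays, and gave 0.06 (adjusted p = 0.687) on 1434264_at. As means over their probe sets Stx1a did not pass (0.10, adjusted p = 0.699), and Ank2 (-1.25, adjusted p = 5.73e-09), Rims2 (-0.51, adjusted p = 0.00613) and Nedd4l (-0.99, adjusted p = 8.04e-06) were lower. Among partners, quantile normalization gave 19 higher probe sets and 33 lower ones. Median centring gave 27 and 24, and the control scaling gave 2 and 58. The shares of all probe sets were 24.1% and 22% with the first of these, 28.4% and 18.5% with the next, and 2.88% and 68.4% with the last.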

How the data were processed

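The authors deposited linear intensities for 45101 probe sets on 18 arrays. The submitters' processing notes name MAS5. Leaving out 2% of values at each end, the mean intensity was 500 on all arrays. RNA (5 ng) had been amplified with NuGen WT-Ovation Pico and labelled with biotin, per the labels' protocols. Detection calls were not used here.

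The 64 array controls were left out, 16 was added and the log2 taken, with no filter on brightness. The other 45037 probe sets were fitted with limma 3.58.1 in R 4.3.3 (eBayes with an intensity trend, no block, Benjamini-Hochberg adjustment over all). The procedure was tested on simulated data with equal spread in both groups and no scaling differences between arrays. In the real data IP arrays varied more and scaling changed the calls, which the simulation did not cover. Symbols came from the platform annotation, in which 34945 probe sets had 1 symbol, 932 several and 9160 none listed. All 85 members kept theirs when matched by Entrez ID to RefSeq. Members, gene lists and alternatives were chosen with earlier results of these data known. Values are given for the 4 largest rises and falls in each of 4 subunit classes, for the brightest probe set of each, and for genes called in both directions, and other members are named where counts call for it. From the list of channel partners, 3 rises and 3 falls are named. Alternatives were other pseudocounts (1 and 64), 3 other scalings between arrays (quantile, median, and by 18 hybridization control probe sets), a minimum mean of 7, no trend, array weights, the replicate number as a block, each array left out in turn and means over a gene's probe sets. Leaving out 4 IP arrays together was added after seeing the data. The number of arrays limits the precision.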

Additional observations from a re-analysis of the deposited data

Results flagged for a closer look

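In 10 of 108 groups of 9 arrays examined, the highest or lowest array stood apart from the rest by a share of the group's log2 range above Dixon's 95% critical value. Chance alone marks about 1 in 20 such groups. In IP there were 5. Cacna2d4 on 1442863_at had 165 on replicate 6, against 20.0 on the next array (0.757 of the log2 range). Cacng3 on 1450520_at had 82.8 on replicate 2 and 224 on the next (0.643). Cacna2d3 had 1233 on replicate 7 and 584 on the next (0.535), and Scn9a on 1457819_at had 29.3 on replicate 2 and 119.7 on the next (0.519). Cacnb4 on 1428928_at had 2101 on replicate 1 and 3275 on the next (0.497). In WB a low array stood apart in 5. These were replicate 8 for Scn3a on 1421705_at (81.1 and 146, 0.644) and replicate 1 for Cacna1c on 1435730_at (345 and 526, 0.64). The others were replicate 2 for Cacna1a on 1450510_a_at (42.4 and 77.4, 0.602), replicate 9 for Scn2a on 1427281_at (809 and 1076, 0.562) and replicate 3 for Cacnb4 on 1428928_at (1682 and 2478, 0.56).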

How the results depend on the processing

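The number of pore-forming probe sets higher in IP (8) was 13 after quantile normalization and 2 after scaling on the hybridization controls, and the number lower (17) was 10 after median centring and 30 after control scaling. Auxiliary probe sets higher (3) were 0 after control scaling with limma, also at an unadjusted p of 0.05, and those lower (22) were 13 after median centring and 37 after control scaling. For channel partners the counts of 18 and 31 were 2 and 58 after control scaling. Median centring and control scaling shift the differences of all probe sets alike. Over all probe sets the shares higher and lower were 28.4% and 18.5% with the first, and 2.88% and 68.4% with the second. Quantile normalization gave 24.1% and 22%. Why the controls differed between the groups was not tested. Pseudocounts, the brightness filter, no trend, array weights and leaving out 4 IP arrays kept all 6 counts within 1.5 times. Leaving out each array gave 7 to 8 and 14 to 18 pore-forming, 2 to 3 and 22 to 23 auxiliary, and 18 to 20 and 30 to 33 partner probe sets, higher and lower.

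Control scaling turned Scn2a 1435933_at (-0.084), Scn8a 1439889_at (-0.38), Cacna1a 1450510_a_at (-0.73), Cacna1b 1425812_a_at (-0.70), Cacna2d2 1450754_at (-0.55) and Cacnb4 1428928_at (-0.41). Quantile normalization turned Cacna2d2 (-0.20), and median centring turned Scn8a 1457412_at (0.26), which ranged from -0.28 to 0.050 without 1 array. Means over probe sets opposed the named probe set for Cacna1a (-0.51), Cacna1b 1439612_at (0.81), Scn1a 1450121_at (-0.37), Scn2a 1435933_at (-0.63), Scn3a 1421705_at (0.31), Scn8a 1439889_at (-0.57), Cacnb4 1428928_at (-0.95), Rims2 (-0.51) and Nedd4l 1441305_at (-0.99).

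The groups share replicate numbers, but same-numbered arrays had correlations of deviations from -0.05 to 0.08, with 0 of 9 over 0.1, and 2 of 9 IP arrays correlated best with their own number. With the replicate block, 8 pore-forming probe sets were higher and 14 lower, and 3 auxiliary ones were higher and 22 lower.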
